A study of Homo sapiens with 12 samples.

Results

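The genes described here are 37 genes of the integrated stress response, of amino acid and one-carbon metabolism, of amino acid transport and of cytosolic tRNA charging, taken by symbol from a table of 78932 genes. Each of the 37 symbols had 1 row. They were measured by mRNA sequencing in THP-1, an established human monocytic leukaemia cell line, in 4 groups of 3 libraries. The NC group is the untreated control. The LPS group received LPS, the endotoxin that activates TLR4, together with ATP, which acts on P2X7, to model pyroptosis, a lytic and inflammatory form of cell death. The CE group received LPS and ATP with CsA (cyclosporin A, a calcineurin inhibitor) and Eltrombopag (a thrombopoietin receptor agonist that also binds iron). The CEL group received the agents of CE and in addition Luspatercept, an activin receptor IIB ligand trap. CE and CEL therefore both carry LPS and ATP, and no library received a drug without them. Doses and times are not given in the labels. THP-1 is a single line, and nothing in the labels says that the replicates were separate cultures, so the spread behind each p-value may be technical.

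The integrated stress response starts when a kinase phosphorylates the translation factor eIF2 on its alpha subunit: HRI (EIF2AK1) under heme shortage or mitochondrial stress, PKR (EIF2AK2) under double-stranded RNA, PERK (EIF2AK3) under protein misfolding in the endoplasmic reticulum, and GCN2 (EIF2AK4) under amino acid shortage. General translation then slows while translation of ATF4 increases, so that much of the control of ATF4 lies above the level of its mRNA. ATF4 is a transcription factor that pairs with C/EBP proteins and switches on genes for amino acid synthesis, amino acid uptake and tRNA charging, as well as CHOP (DDIT3) and the phosphatase subunit GADD34 (PPP1R15A), which removes the phosphate from eIF2 again. In macrophages the pathway is known for its links to serine synthesis, cystine uptake and cytokine output.

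The libraries held 17737213 to 23183429 estimated counts. Of the 37 genes, 35 passed the filter on low counts and were tested among 14065 genes. The glutathione-degrading enzyme CHAC1 was at 0 to 0.53 CPM and the leucine sensor SESN2 at 0.09 to 0.82 CPM (read counts relative to library size), and neither was tested. Monocytic markers were present, with 8 of 9 above 1 TPM in some library, while 14 of 18 markers of lymphoid, erythroid, megakaryocytic, fibroblast, epithelial and endothelial cells stayed under 1 TPM in the 12 libraries. The other 4 included NCAM1, which is used as a natural killer cell marker, and HBA1 and PDGFRB, which passed 1 TPM in CEL 2 alone. The summed TPM of the 6 lymphocyte markers, most of it from NCAM1, ran from 5.21 to 7.53 in NC, 2.17 to 2.93 in LPS, 6.86 to 8.80 in CE and 3.25 to 3.92 in CEL. It was thus lowest in LPS and highest in CE, as were several of the genes below, and its part in their values was not tested. The summed TPM of the 9 monocytic markers ran from 756 to 1054 in NC, 703 to 1045 in LPS, 454 to 578 in CE and 433 to 467 in CEL. Libraries NC 3 and LPS 1 held more small non-polyadenylated RNA (0.182% and 0.160% of counts, against at most 0.00275% elsewhere). Library CE 2 stood apart from CE 1 and CE 3 on the second principal component (-14.5 against 26.9 and 20). The CE columns carry a name that says no more than treatment, and they were assigned to CE by elimination, so the CE values depend on that assignment.

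ATF4 and its C/EBP partners bind a composite element whose core is searched here as TGATGNAA, or TTNCATCA on the other strand. Promoter windows of 300 bases, from 250 before to 50 after a transcript start of a gene, were taken from RefSeq on GRCh38.p14. Of the 37 genes, 29 had a window, and 13 of these 29 (44.8%) held the core on either strand. Over all genes with a window the share was 4.46%. The cytosolic synthetases held it in 6 of 8, the transporters in 3 of 5, the regulators in 3 of 11 and the synthesis enzymes in 1 of 5. By comparison it was present in 4 of 16 further ATF4 target genes, in 1 of 8 of the other cytosolic synthetases and in 1 of 14 mitochondrial synthetases. The 37 genes were chosen with earlier results of these data known, so these shares are a description. The 30-base stretches below are shown because they carry the core in the genes whose values follow. They read 5′ to 3′ along the gene, with the core in capitals.

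ATF3: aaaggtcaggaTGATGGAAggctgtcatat
CEBPG: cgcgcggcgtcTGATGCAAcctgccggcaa
ASNS: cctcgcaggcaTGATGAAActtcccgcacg
SLC1A5: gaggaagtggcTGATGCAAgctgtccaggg
AARS1: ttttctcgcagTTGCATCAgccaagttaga
GARS1: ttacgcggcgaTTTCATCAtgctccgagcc
NARS1: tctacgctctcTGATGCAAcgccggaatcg
MARS1: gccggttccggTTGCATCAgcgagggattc
IARS1: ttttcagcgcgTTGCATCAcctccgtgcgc
TARS1: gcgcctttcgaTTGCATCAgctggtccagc
CARS1: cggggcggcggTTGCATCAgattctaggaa

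The ASNS stretch lies at chr7:97872458-97872487 on the minus strand, with the first base of the core 68 bases before the start. The GARS1 stretch lies at chr7:30594834-30594863 on the plus strand, 33 bases before the start, and the AARS1 stretch at chr16:70289675-70289704 on the minus strand, 187 bases before it. The MARS1 stretch at chr12:57488053-57488082, plus strand, has a core that begins 4 bases before the start and runs across it, and the IARS1 stretch at chr9:92293692-92293721, minus strand, has one that begins 13 bases before it. In TARS1 (chr5:33440956-33440985, plus strand) the core begins 3 bases after the start and in NARS1 (chr18:57621804-57621833, minus strand) 15 bases after it. Those of ATF3 (chr1:212565205-212565234, plus strand), CEBPG (chr19:33374060-33374089, plus strand) and SLC1A5 (chr19:46784893-46784922, minus strand) begin 191, 42 and 97 bases before the start. The start is that of the RefSeq window and need not be the outer end of the gene. The SLC1A5 window (chr19:46784765-46785064) lies inside the gene, which spans chr19:46774883-46788594 in GENCODE 29. The MARS1 window (chr12:57487818-57488117) also lies inside its gene (chr12:57475445-57517569). The windows of CEBPG, NARS1 and TARS1 lie inside their genes too. CARS1, a cysteine synthetase and the match among the other cytosolic synthetases, has a core that begins 2 bases before the start and runs across it (chr11:3057407-3057436, minus strand). CHAC1, SLC3A2 and SLC7A1 also held the core, CHAC1 and SLC3A2 in windows that lie inside the gene. A match is a description of letters in a window and not of binding. Tested genes rose over LPS with and without the core. In CE against LPS, 9 of 12 with it rose (median log2 change 0.73) and 9 of 15 without it (0.80). In CEL against LPS, 8 of 12 with it rose (0.53) and 9 of 15 without it (0.77). In each of these sets 1 gene fell. Of all tested genes, 28.8% rose and 20.7% fell in CE against LPS, and 28.7% and 27.2% in CEL against LPS. The part of the core in the changes was not tested.

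Most of the genes that moved were lower in LPS than in NC, and most were higher in both drug groups than in LPS. In LPS against NC, 6 of the 35 rose and 17 fell, where 22.4% of all tested genes rose and 23.5% fell (edgeR's quasi-likelihood test, Benjamini-Hochberg adjusted p under 0.05, used throughout). The median log2 change of the 35 was -0.22, against -0.01 over all tested genes. In CE against LPS, 23 rose and 3 fell, where 28.8% of all tested genes rose and 20.7% fell, and the median was 0.80 against 0.08. In CEL against LPS, 22 rose and 5 fell, where 28.7% rose and 27.2% fell, with a median of 0.72 against -0.03. In CEL against CE, 3 rose and 10 fell, where 8.78% rose and 14.8% fell, with a median of -0.18 against -0.09. Of these 13 calls, 0 held in all 16 alternative fits and 6 held in each of those made on counts. The counts of smaller gene lists below are to be read beside these shares of all tested genes. These comparisons share libraries: LPS is in 3 of them. Where a role group below has a count of 0, edgeR at an unadjusted p under 0.05 and DESeq2 also gave 0. Bulk RNA gives shares of a library, so fewer cells of a kind and less RNA per cell cannot be told apart.

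Without NC 3 and LPS 1, a setting chosen after the data were seen, the counts were 4 higher and 14 lower for LPS against NC, 21 and 1 for CE against LPS, 19 and 2 for CEL against LPS, and 2 and 8 for CEL against CE. Without CE 2 they were 23 and 5 for CE against LPS and 6 and 11 for CEL against CE. In CPM, the libraries of the groups compared did not overlap for 27 of the 35 genes in LPS against NC, where this held for 62.5% of all tested genes. For CE against LPS it held for 26 of 35 against 54.6% of all, for CEL against LPS for 29 of 35 against 65.5%, and for CEL against CE for 15 of 35 against 34.7%.

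**Figure D1:**
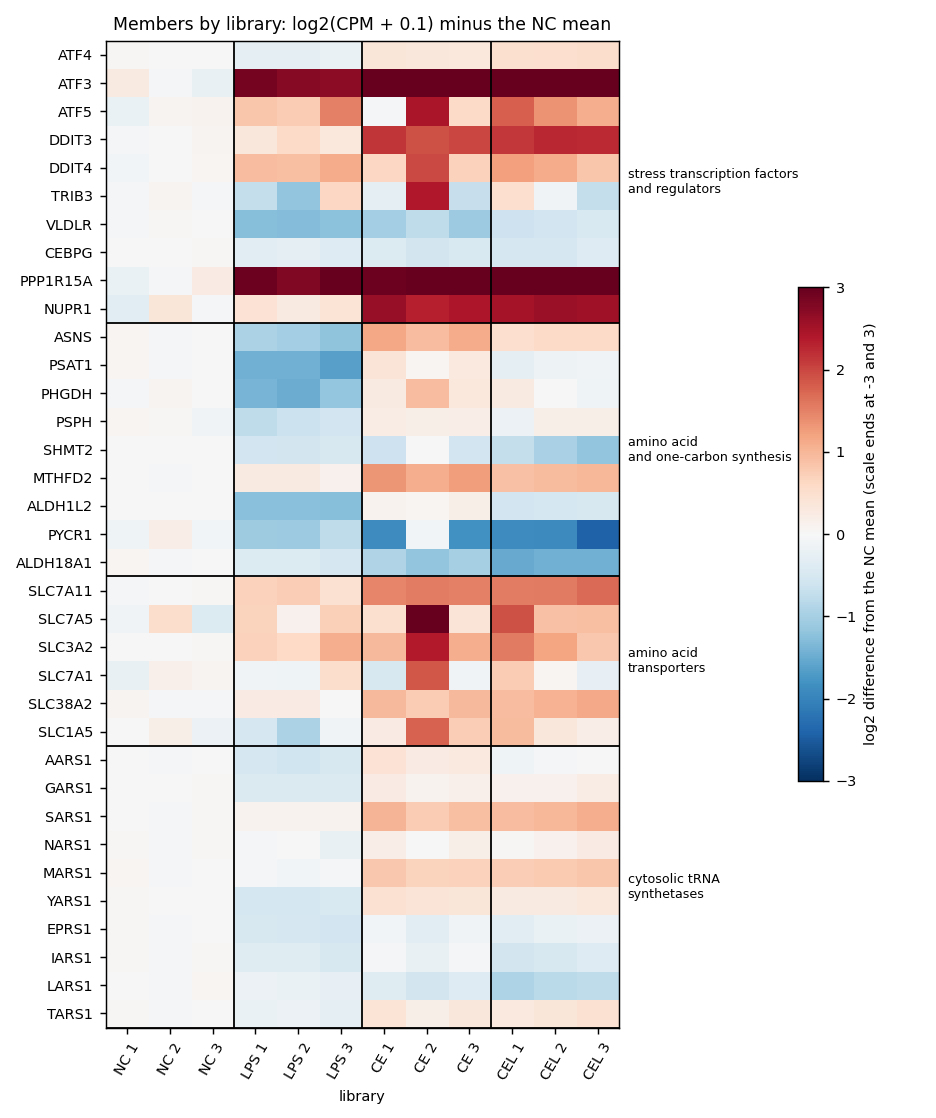
Level of each of the 35 tested genes (rows, in 4 role groups) in each of the 12 libraries (columns), as log2(CPM + 0.1) minus the NC mean, red for higher and blue for lower, with the colour scale ending at -3 and 3. Most synthesis and synthetase genes are blue in the 3 LPS libraries, and library CE 2 differs from CE 1 and CE 3 in ATF5, TRIB3, SLC7A5, SLC3A2 and SLC7A1.

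Among the 12 regulators, 10 were tested. In LPS against NC 4 rose and 3 fell, in CE against LPS 5 rose and 1 fell, in CEL against LPS 5 rose and 1 fell, and in CEL against CE 3 rose and none of the 10 fell. ATF4, the central factor, was at 255, 245 and 246 CPM in NC and at 205, 202 and 216 in LPS. It was at 321, 315 and 308 CPM in CE and at 348, 355 and 359.7 in CEL. In CPM the 4 groups did not overlap, with LPS lowest and CEL highest. In TPM, NC ran from 177 to 255 and LPS from 167 to 251, so NC and LPS overlapped on that scale. The log2 change was -0.26 ± 0.04 (approximate SE, n = 3 libraries a group) for LPS against NC (edgeR adjusted p = 0.000114), 0.60 ± 0.04 for CE against LPS (edgeR adjusted p = 1.31e-07) and 0.77 ± 0.04 for CEL against LPS (edgeR adjusted p = 1.27e-08). CEL exceeded CE by 0.17 ± 0.04 (edgeR adjusted p = 0.00495). That call was lost in 4 of 16 alternatives, among them the fit without NC 3 and LPS 1 (edgeR adjusted p = 0.0609). The fall of ATF4 in LPS against NC was lost in 3 of 16. These were the fit without a low-count filter and limma on log2(TPM + 1) and on log2(TPM + 0.1).

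DDIT3 encodes CHOP, a C/EBP family factor made late in the response. Its levels were 16.4, 16.9 and 17.9 CPM in NC and 21.5, 25.4 and 21.2 in LPS. In CE they were 75.2, 64.5 and 68.2 CPM and in CEL 74.1, 81.6 and 80.6. Both drug groups lay far above LPS and overlapped each other. DDIT3 rose by 0.41 ± 0.09 in LPS against NC, by 1.61 ± 0.09 in CE against LPS (edgeR adjusted p = 5.95e-08) and by 1.79 ± 0.09 in CEL against LPS (edgeR adjusted p = 1.74e-08). CEL against CE gave 0.18 ± 0.08 on the log2 scale (edgeR adjusted p = 0.143). The 3′ end of DDIT3 shares 62 exon bases with MARS1 on the opposite strand (GENCODE 29), and no source used here states whether the counting was strand-specific, so reads there cannot be assigned.

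ATF3, a stress-induced repressor and activator that also answers TLR signals, rose in each of the main comparisons. It was at 1.91, 1.51 and 1.31 CPM in NC, 12.1, 10.9 and 10.5 in LPS, 33.4, 34.3 and 32.6 in CE and 48.3, 51.3 and 49.0 in CEL. The 4 groups formed a ladder with no overlap. The steps were 2.81 ± 0.12 for LPS against NC (edgeR adjusted p = 3.25e-09), 1.58 ± 0.10 for CE against LPS (edgeR adjusted p = 1.74e-07) and 0.57 ± 0.09 for CEL against CE (edgeR adjusted p = 0.00129).

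NUPR1, a small chromatin protein of the stress response, was at 1.70, 2.79 and 2.06 CPM in NC and at 2.95, 2.60 and 2.89 in LPS. It was at 13.5, 11.2 and 12.0 in CE and at 12.5, 13.4 and 12.9 in CEL. NC and LPS overlapped, as did CE and CEL, and the 2 pairs lay far apart. NUPR1 rose by 2.12 ± 0.16 in CE against LPS (edgeR adjusted p = 8.96e-07) and by 2.20 ± 0.16 in CEL against LPS (edgeR adjusted p = 4.57e-07).

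VLDLR, a lipoprotein receptor known as an ATF4 target, moved the other way in the model. It was at 74.8, 78.9 and 76.7 CPM in NC, 31.5, 31.3 and 32.9 in LPS, 37.6, 45.2 and 35.9 in CE and 50.1, 51.9 and 56.1 in CEL. It fell by 1.27 ± 0.08 on the log2 scale in LPS against NC (edgeR adjusted p = 2.36e-07), rose by 0.31 ± 0.08 in CE against LPS (edgeR adjusted p = 0.00854) and rose by a further 0.41 ± 0.08 in CEL against CE (edgeR adjusted p = 0.00394). The rise in CE was lost in 6 of 16 alternatives, among them upper quartile factors (0.13, edgeR adjusted p = 0.158) and library size alone (0.16, edgeR adjusted p = 0.218). The further rise in CEL was lost in 3 of 16: without a low-count filter and with limma on log2(TPM + 1) and on log2(TPM + 0.1). In CPM, all 12 libraries fell into 4 separate ranges, with the drug groups between LPS and NC. VLDLR shares 738 exon bases with the antisense gene VLDLR-AS1, which held 1472 counts over the 12 libraries against 12600 for VLDLR.

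PPP1R15A, the GADD34 subunit that directs a phosphatase to eIF2, was at 1.99, 2.19 and 2.74 CPM in NC and at 18.3, 16.3 and 31.6 in LPS. It was at 18.4, 119 and 23.8 CPM in CE and at 63.7, 38.7 and 33.0 in CEL. It rose by 3.27 ± 0.70 in LPS against NC (edgeR adjusted p = 0.00271), whereas CE against LPS gave 1.28 ± 0.60 (edgeR adjusted p = 0.101). Without CE 2 that change was -0.06 (edgeR adjusted p = 0.892). The CE mean thus rested on a single library. CEL against CE gave -0.25 and, without CE 2, a rise of 1.10 (edgeR adjusted p = 0.0243). CEBPG, a C/EBP partner of ATF4, fell by 0.32 ± 0.05 in LPS against NC and lay at 109 to 119.8 CPM in CE, 112 to 123 in CEL and 123 to 132 in LPS. Its falls in CE and CEL against LPS were 0.16 and 0.14 on the log2 scale, and the second ended with the replicate number as a block (edgeR adjusted p = 0.0504). Leaving out LPS 1, LPS 2, CE 2 or CE 3 ended the first (edgeR adjusted p = 0.0637, 0.15, 0.0853 and 0.0741). Leaving out LPS 1, LPS 2, CEL 1 or CEL 2 ended the second (edgeR adjusted p = 0.0738, 0.42, 0.319 and 0.445). DDIT4, an inhibitor of mTORC1, rose by 0.99 ± 0.31 in LPS against NC, a call that ended without NC 1, NC 2 or LPS 3 (edgeR adjusted p = 0.0677, 0.056 and 0.0611). ATF5, a factor close to ATF4, and TRIB3, a pseudokinase that restrains ATF4, passed the test in none of the 4 main comparisons with all 12 libraries. Without CE 2, ATF5 fell by 0.78 in CE against LPS (edgeR adjusted p = 0.0337) and rose by 1.15 in CEL against CE (edgeR adjusted p = 0.0109), where the values with it were 0.32 and 0.04. DDIT4 likewise went from 0.26 to -0.32 in CE against LPS (edgeR adjusted p = 0.0476 without CE 2) and from -0.18 to 0.41 in CEL against CE (edgeR adjusted p = 0.0305). Libraries LPS 3 and CEL 1, kept in the fits without CE 2, were themselves above the rest of their groups for these genes. The ratios were 1.83 and 1.78 for PPP1R15A, 1.64 and 1.48 for ATF5 and 1.15 and 1.2 for DDIT4. Their part in the values without CE 2 was not tested. ATF5 shares 563 exon bases with NUP62 on the opposite strand.

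**Figure D2:**
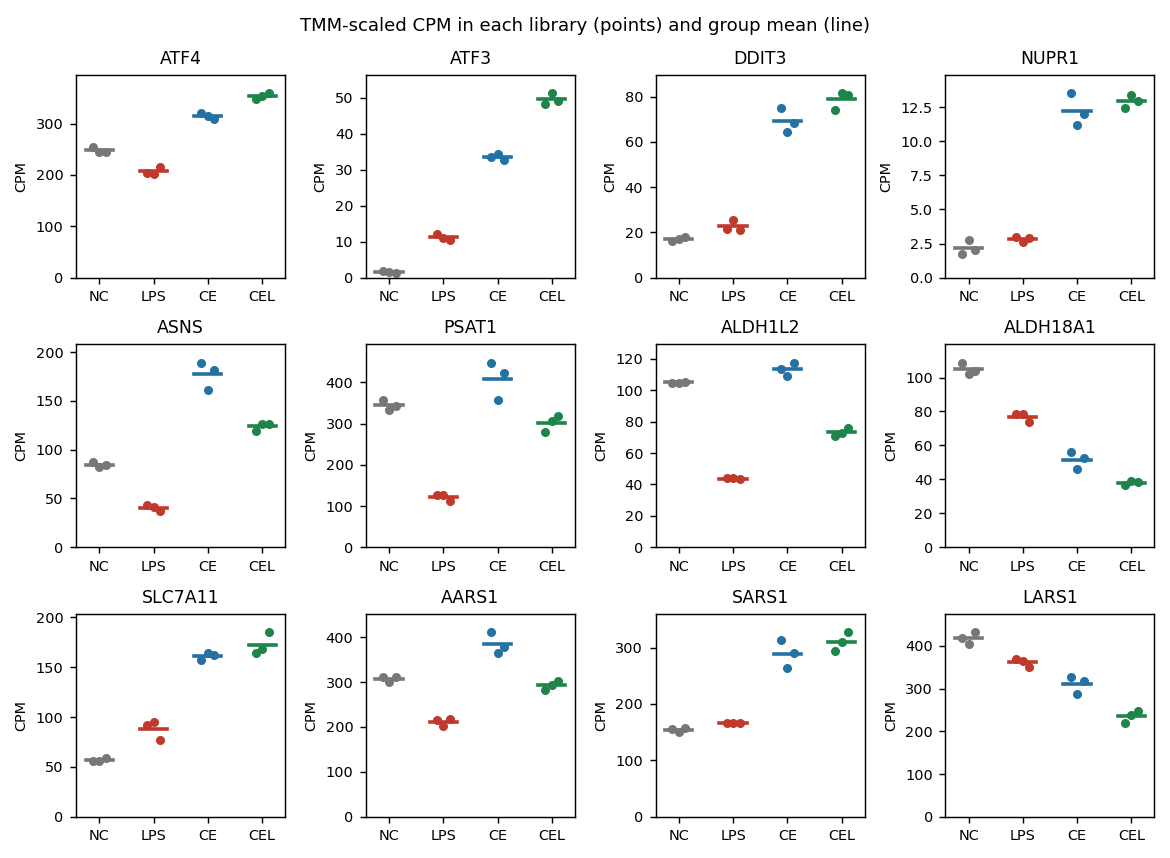
TMM-scaled CPM of 12 of the genes in each library (points, 3 per group) with the group mean (line), each panel starting at 0. ATF4, ATF3 and DDIT3 are highest in CEL, ASNS, PSAT1, ALDH1L2 and AARS1 are lowest in LPS and highest in CE, and ALDH18A1 and LARS1 descend from NC to CEL.

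Most of the synthesis genes were lower in LPS than in NC and higher in both drug groups than in LPS. Of 9, 1 rose and 7 fell in LPS against NC, 6 rose and 1 fell in CE against LPS, 6 rose and 3 fell in CEL against LPS, and 6 fell and none of the 9 rose in CEL against CE. With limma on log2(TPM + 1) or log2(TPM + 0.1), the falls of PSPH, SHMT2 and ALDH18A1 in LPS against NC did not pass, though they stayed below 0. That of SHMT2 ended also without NC 3 and LPS 1 (edgeR adjusted p = 0.0501). ASNS, which makes asparagine, was at 87.8, 81.7 and 84.4 CPM in NC and at 43.7, 41.4 and 36.8 in LPS. It was at 189, 161 and 182 CPM in CE and at 119, 126 and 126 in CEL. The 4 groups did not overlap, and both drug groups lay above NC. ASNS fell by 1.06 ± 0.08 in LPS against NC (edgeR adjusted p = 4.31e-07), rose by 2.13 ± 0.08 in CE against LPS (edgeR adjusted p = 4.01e-09) and rose by 1.61 ± 0.08 in CEL against LPS (edgeR adjusted p = 1.36e-08). In CEL against CE it fell by 0.52 ± 0.07 (edgeR adjusted p = 0.000461).

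The 3 enzymes that make serine from a glycolytic intermediate are PHGDH, PSAT1 and PSPH, in that order of the steps. PHGDH was at 71.6, 78.5 and 73.9 CPM in NC, 28.5, 26.7 and 33.2 in LPS, 90.1, 141 and 93.6 in CE and 89.7, 73.9 and 68.0 in CEL. PSAT1 was at 358, 332 and 344 CPM in NC, 127, 126 and 112 in LPS, 448, 358 and 422 in CE and 279, 308 and 317 in CEL. PSPH ran from 13.8 to 15.3 CPM in NC, from 8.64 to 9.81 in LPS, from 16.7 to 17.2 in CE and from 13.0 to 16.6 in CEL. The LPS libraries were the lowest for each of the 3 genes. In LPS against NC the falls were 1.34 ± 0.17 for PHGDH, 1.50 ± 0.09 for PSAT1 and 0.67 ± 0.10 for PSPH. In CE against LPS the rises were 1.88 ± 0.17 (edgeR adjusted p = 3.41e-06), 1.75 ± 0.09 (edgeR adjusted p = 3.17e-08) and 0.87 ± 0.10 (edgeR adjusted p = 2.69e-05). In CEL against LPS they were 1.39 ± 0.17, 1.31 ± 0.09 and 0.73 ± 0.10. PSAT1 fell by 0.44 ± 0.08 in CEL against CE (edgeR adjusted p = 0.00267), and without CE 3 or CEL 1 that call ended (edgeR adjusted p = 0.0578 and 0.0642). PHGDH gave -0.49 ± 0.16 there (edgeR adjusted p = 0.0522) and PSPH -0.13 ± 0.10.

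The mitochondrial one-carbon enzymes did not move together. SHMT2 passes the carbon of serine to folate, MTHFD2 oxidises the product and ALDH1L2 turns formyl-folate into carbon dioxide with a gain of NADPH. MTHFD2 was the synthesis gene that rose in LPS against NC (0.22 ± 0.06, edgeR adjusted p = 0.0125), from 315 to 325 CPM in NC to 353 to 388 in LPS. That call ended without NC 3 or LPS 2 (edgeR adjusted p = 0.119 and 0.143). In CE it was at 805, 685 and 766 CPM and in CEL at 588, 621 and 641, above every LPS and NC library. The rise was 1.00 ± 0.06 in CE against LPS (edgeR adjusted p = 1.96e-07) and 0.72 ± 0.06 in CEL against LPS (edgeR adjusted p = 1.86e-06). Its fall of 0.29 ± 0.06 in CEL against CE (edgeR adjusted p = 0.00644) ended without CE 1, CE 3, CEL 1 or CEL 2 (edgeR adjusted p = 0.152, 0.153, 0.151 and 0.127).

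ALDH1L2 was nearly level within each group, at 105 CPM in each NC library and at 44.1, 44.1 and 43.2 in LPS. It was at 113, 109 and 118 CPM in CE and at 71.0, 73.1 and 75.8 in CEL. CEL lay between LPS and NC. CE lay above NC by 0.11 on the log2 scale (edgeR adjusted p = 0.0442), and this step depended on the scaling: with upper quartile factors it was -0.17 (edgeR adjusted p = 0.0116), the call was lost in 12 of 16 alternatives and the sign turned in 2. ALDH1L2 fell by 1.26 ± 0.05 in LPS against NC (edgeR adjusted p = 8.81e-10), rose by 1.37 ± 0.05 in CE against LPS (edgeR adjusted p = 2.09e-09) and fell by 0.63 ± 0.04 in CEL against CE (edgeR adjusted p = 3.99e-06). SHMT2 ran from 122 to 123 CPM in NC and from 81.8 to 88.3 in LPS, a fall of 0.53 ± 0.15. In CEL against LPS it fell by 0.41 ± 0.15 (edgeR adjusted p = 0.0394), and leaving out any of LPS 1, LPS 2, LPS 3, CEL 2 and CEL 3 ended that call, with edgeR adjusted p from 0.0643 to 0.153. In CEL against CE it fell by 0.57 ± 0.15 (edgeR adjusted p = 0.0197), and that call ended without CEL 2 or CEL 3 (edgeR adjusted p = 0.098 and 0.0827).

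The 2 proline enzymes, like SHMT2, did not rise over LPS in either drug group. ALDH18A1 makes the first committed intermediate of proline from glutamate, and PYCR1 completes it. ALDH18A1 was at 109, 102 and 104 CPM in NC, 78.3, 78.5 and 73.7 in LPS, 56.4, 46.0 and 52.7 in CE and 36.7, 38.8 and 38.5 in CEL. In CPM each group lay below the one before. In TPM, NC (28.6 to 41.9) and LPS (24.4 to 33.0) overlapped. It fell by 0.45 ± 0.07 in LPS against NC (edgeR adjusted p = 0.000297), by 0.57 ± 0.07 in CE against LPS (edgeR adjusted p = 4.03e-05) and by 0.44 ± 0.07 in CEL against CE (edgeR adjusted p = 0.00105). PYCR1 was at 7.31, 9.13 and 7.54 CPM in NC, 3.73, 3.69 and 4.62 in LPS, 2.07, 7.46 and 2.17 in CE and 2.08, 2.05 and 1.40 in CEL. Library CE 2 was again out of line with its group. PYCR1 fell by 1.12 ± 0.43 in CEL against LPS (edgeR adjusted p = 0.0463), and leaving out any 1 of the 6 libraries ended the call, with edgeR adjusted p from 0.0701 to 0.145. In CE against LPS it gave -0.04 ± 0.42, and without CE 2 it fell by 0.91 (edgeR adjusted p = 0.00291).

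**Figure D3:**
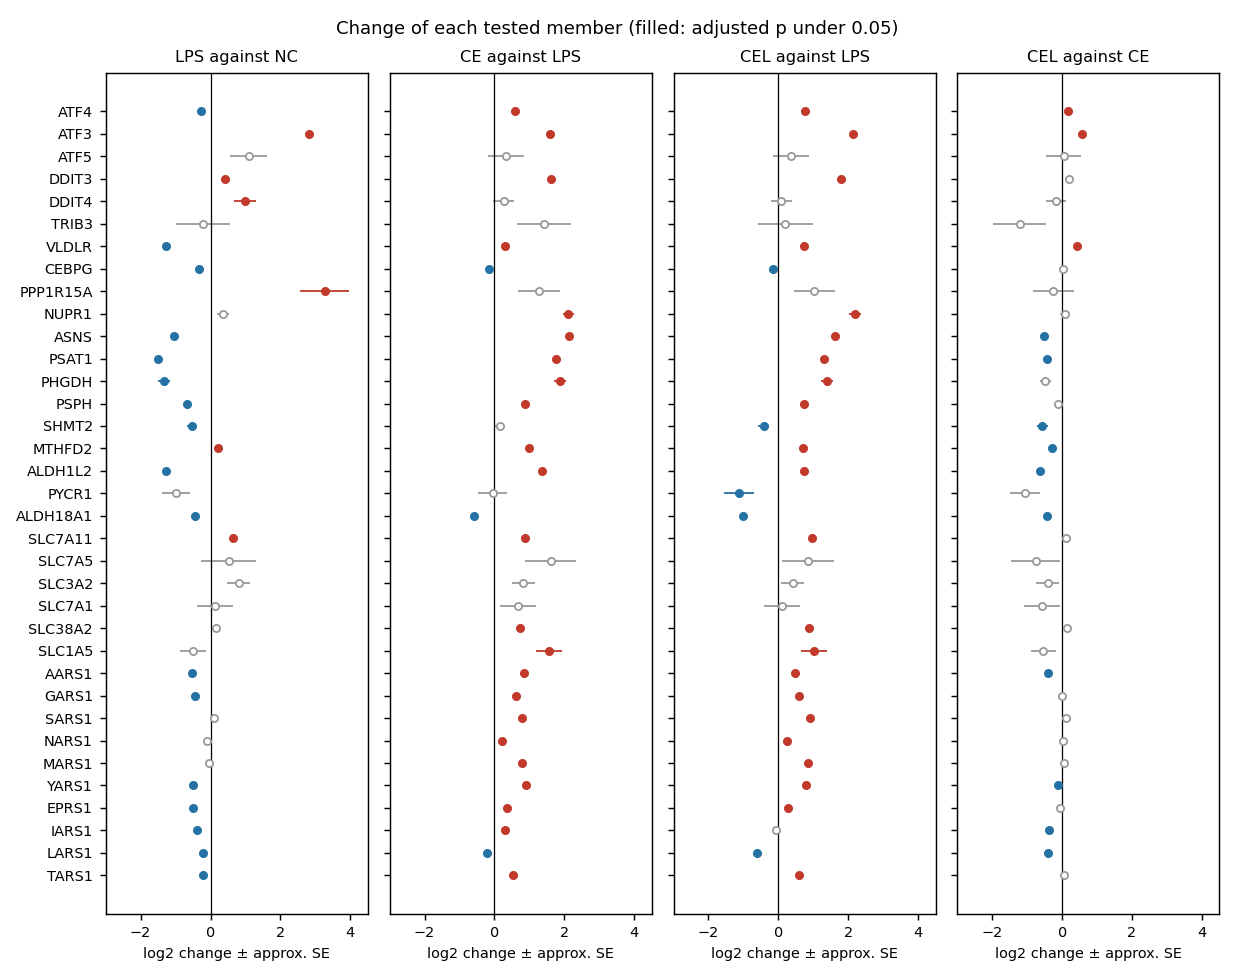
Log2 change of each of the 35 tested genes with its approximate standard error in 4 comparisons, filled where the edgeR adjusted p was under 0.05 (red higher, blue lower). Bars are long for ATF5, TRIB3, PPP1R15A, SLC7A5 and SLC7A1, and most filled points lie right of 0 in CE and CEL against LPS.

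Among the 6 transporters, SLC7A11, SLC38A2 and SLC1A5 rose in CE against LPS and in CEL against LPS, and none of the 6 fell. In LPS against NC 1 rose, and in CEL against CE 0 of 6 passed. SLC7A11, the cystine importer that feeds glutathione synthesis, was at 55.7, 55.8 and 58.5 CPM in NC and at 91.9, 94.7 and 77.3 in LPS. It was at 157, 164 and 162 CPM in CE and at 164, 168 and 185 in CEL. NC, LPS and the drug groups formed 3 levels without overlap. SLC7A11 rose by 0.64 ± 0.07 in LPS against NC (edgeR adjusted p = 2.9e-05), by 0.87 ± 0.07 in CE against LPS (edgeR adjusted p = 1.86e-06) and by 0.97 ± 0.07 in CEL against LPS (edgeR adjusted p = 5.6e-07).

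SLC38A2, a sodium-coupled importer of small neutral amino acids, was at 423, 387 and 383 CPM in NC, 468, 469 and 403 in LPS, 779, 677 and 780.5 in CE and 757, 815 and 874 in CEL. NC and LPS overlapped, and so did CE and CEL. It rose by 0.74 ± 0.08 in CE against LPS (edgeR adjusted p = 1.7e-05) and by 0.87 ± 0.08 in CEL against LPS (edgeR adjusted p = 3.36e-06). SLC1A5, the glutamine carrier whose window carries the core shown above, was scarce: 5.90, 6.62 and 5.14 CPM in NC, 4.08, 2.98 and 5.46 in LPS, 6.94, 20.3 and 9.83 in CE, and 11.3, 7.42 and 6.72 in CEL. It rose by 1.56 ± 0.38 in CE against LPS (edgeR adjusted p = 0.00455), and by 1.01 without CE 2 (edgeR adjusted p = 0.00958). In CEL against LPS it rose by 1.02 ± 0.37 (edgeR adjusted p = 0.0358). That call ended without LPS 1, LPS 2 or CEL 1 (edgeR adjusted p = 0.0867, 0.0925 and 0.109) and with the replicate number as a block (edgeR adjusted p = 0.0625).

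SLC3A2, the heavy chain shared by several amino acid exchangers, its partner SLC7A5, which carries leucine, and SLC7A1, which carries arginine, did not pass in these 4 comparisons. Without CE 2 they did not pass in CE against LPS or CEL against CE either, but the changes of SLC7A5 and SLC7A1 in CE against LPS went from 1.61 and 0.68 to -0.09 and -0.41. SLC3A2 was at 43.8, 40.6 and 57.0 CPM in LPS, 53.3, 140.0 and 57.8 in CE and 79.5, 60.9 and 47.1 in CEL. SLC7A5 stayed at or below 2.68 CPM in 11 libraries and was at 7.07 CPM in CE 2. SLC7A1 was at 15.1 to 35.4 CPM in 11 libraries and at 76.3 in CE 2.

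Of the 10 cytosolic tRNA synthetases, the enzymes that load amino acids onto tRNA, 7 fell and none of the 10 rose in LPS against NC. With limma on log2(TPM + 1) or log2(TPM + 0.1) none of these 7 falls passed, though all 7 stayed below 0. In CE against LPS 9 rose and 1 fell, in CEL against LPS 8 rose and 1 fell, and in CEL against CE 4 fell and none of the 10 rose. The changes were smaller than those of the synthesis genes, from -0.22 to 0.91 in CE against LPS. YARS1 (tyrosine) was at 233, 224 and 224 CPM in NC, 159, 157 and 165 in LPS, 314, 298 and 292 in CE and 273, 272 and 282 in CEL. In CPM its 4 groups did not overlap. It fell by 0.50 ± 0.04 in LPS against NC (edgeR adjusted p = 7.11e-07), rose by 0.91 ± 0.04 in CE against LPS (edgeR adjusted p = 9.97e-09) and rose by 0.78 ± 0.04 in CEL against LPS (edgeR adjusted p = 1.69e-08). Its fall of 0.13 in CEL against CE ended without CE 1, CE 3, CEL 1 or CEL 2 (edgeR adjusted p = 0.813, 0.404, 0.412 and 0.591) and with the replicate block (edgeR adjusted p = 0.0561).

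AARS1 (alanine) was lowest in LPS and highest in CE, at 311, 299 and 310.3 CPM in NC, 215, 203 and 219 in LPS, 411, 364 and 379 in CE and 282, 294 and 302 in CEL. CEL overlapped NC. AARS1 fell by 0.53 ± 0.05 in LPS against NC, rose by 0.86 ± 0.05 in CE against LPS (edgeR adjusted p = 1.21e-07) and fell by 0.39 ± 0.05 in CEL against CE (edgeR adjusted p = 0.000237). SARS1 (serine) had no such dip. It was at 156, 150.2 and 157 CPM in NC, 166, 167 and 166 in LPS, 314, 264 and 289.8 in CE and 294, 310.4 and 328 in CEL. It rose by 0.80 ± 0.06 in CE against LPS (edgeR adjusted p = 6.85e-07) and by 0.90 ± 0.06 in CEL against LPS (edgeR adjusted p = 1.72e-07). MARS1 (methionine) was at 154, 143 and 148 CPM in NC, 145, 141 and 143 in LPS, 261, 236 and 239 in CE and 248, 257 and 263 in CEL. Both drug groups lay above every NC and LPS library, with rises over LPS of 0.78 ± 0.05 (edgeR adjusted p = 1.26e-07) and 0.84 ± 0.05 (edgeR adjusted p = 4.58e-08).

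LARS1 (leucine, and a leucine sensor for mTORC1) was the 1 of the 10 that fell in CE against LPS and in CEL against LPS. It was at 419, 404 and 432 CPM in NC, 370.1, 366 and 350.1 in LPS, 328, 288 and 319 in CE and 219, 239 and 248 in CEL. In CPM each group lay below the one before, as for ALDH18A1. In TPM, LARS1 ran from 100 to 132 in NC, 99.3 to 132 in LPS and 103 to 107 in CE, so NC, LPS and CE overlapped. It fell by 0.62 ± 0.06 in CEL against LPS (edgeR adjusted p = 3.43e-06) and by 0.41 ± 0.06 in CEL against CE (edgeR adjusted p = 0.000565). The smaller falls, 0.21 ± 0.06 in LPS against NC and 0.22 ± 0.06 in CE against LPS, ended without LPS 2 (edgeR adjusted p = 0.0542 and 0.057). The first ended also without NC 3 (edgeR adjusted p = 0.0809). It was lost in 8 of 16 alternatives, among them DESeq2 and limma on log2(TPM + 1) and on log2(TPM + 0.1). The fall in CE against LPS was lost in 5 of 16.

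TARS1 (threonine) and GARS1 (glycine) rose over LPS by 0.53 ± 0.07 and 0.61 ± 0.05 in CE and by 0.59 ± 0.07 and 0.59 ± 0.05 in CEL. EPRS1 (glutamate and proline in one protein) rose by 0.36 ± 0.07 and 0.28 ± 0.07. IARS1 (isoleucine) rose by 0.29 ± 0.06 in CE and gave -0.08 ± 0.06 in CEL against LPS (edgeR adjusted p = 0.292). The CEL libraries of IARS1, at 330.2 to 368 CPM, overlapped those of LPS, at 349 to 379. NARS1 (asparagine) rose by 0.21 ± 0.08 in CE against LPS, which ended with the replicate block (edgeR adjusted p = 0.059) and without any 1 of LPS 1, LPS 2, LPS 3, CE 1 and CE 3 (edgeR adjusted p from 0.0524 to 0.225). Its rise of 0.23 ± 0.08 in CEL against LPS ended without LPS 3 or CEL 3 (edgeR adjusted p = 0.0582 and 0.0872). The falls of TARS1 (0.22) and LARS1 in LPS against NC were the smallest of the 7, and that of TARS1 ended without NC 1, NC 3, LPS 1, LPS 2 or LPS 3 (edgeR adjusted p from 0.0546 to 0.0818).

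Per transcript length, TARS1 mRNA was the most abundant of the 10 synthetases in every group. In NC its level was 503 ± 83.7 TPM (SD, n = 3), followed by EPRS1 at 332 ± 54.7 and NARS1 at 219 ± 33.1 TPM. The other 7 lay between 106 ± 16.2 TPM (SARS1) and 157 ± 28.6 TPM (GARS1), and neighbours among these 7 did not differ beyond their spread. In CEL the order was TARS1 at 746 ± 27.4, EPRS1 at 325 ± 5.69, NARS1 at 306 ± 14.03, MARS1 at 270.1 ± 4.07 and SARS1 at 264 ± 7.77 TPM. MARS1 and SARS1 there differed by less than their spread. LARS1, at 83.8 ± 2.03 TPM, was the lowest of the 10 in CEL. NC 3 and LPS 1 widen the NC and LPS spreads on this scale: the summed TPM of the 37 genes was 2509 in NC 3 and 2341 in LPS 1, and reached 3507 in NC and 3301 in LPS.

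Cytosolic synthetases outside the 37 genes behaved less evenly. Of 10 such genes, 3 rose and 3 fell in CE against LPS, with a median log2 change of -0.15, where the 10 described above had a median of 0.57. CARS1 (cysteine) and WARS1 (tryptophan, known also as an interferon-induced gene) rose further in CE against LPS than any of those 10. CARS1 was at 48.9, 49.6 and 50.3 CPM in LPS, 133, 114 and 117 in CE and 136, 138 and 149 in CEL, with rises of 1.29 ± 0.06 (edgeR adjusted p = 2.91e-08) and 1.51 ± 0.06 (edgeR adjusted p = 5.61e-09). WARS1 rose by 1.12 ± 0.06 and 0.86 ± 0.06. FARSB, a subunit of the phenylalanine enzyme, fell by 0.61 ± 0.05 in CE and by 0.94 ± 0.05 in CEL against LPS. Taking the 20 cytosolic genes as a whole, 12 rose and 4 fell in CE against LPS. The 10 described were named as a set with results of these data in view, so the difference between the 10 and the rest is a description.

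Mitochondrial synthetases, coded by separate genes, gave 2 higher and 4 lower of 16 in CE against LPS, and 3 higher and 6 lower in CEL against LPS. Of all tested genes, 28.8% rose and 20.7% fell in the first comparison, and 28.7% and 27.2% in the second. MARS2, the mitochondrial methionine enzyme, was at 17.0 to 18.4 CPM in LPS, 6.05 to 8.66 in CE and 5.81 to 6.32 in CEL. It fell by 1.28 ± 0.12 (edgeR adjusted p = 3.82e-06) and 1.53 ± 0.12 (edgeR adjusted p = 6.65e-07), where MARS1 rose. HARS2 rose by 0.16 ± 0.05 and 0.39 ± 0.05. Of the 3 scaffold genes that hold several cytosolic synthetases in a complex, AIMP1 rose by 0.26 ± 0.06 and AIMP2 fell by 0.48 ± 0.11 in CE against LPS, and EEF1E1 gave -0.04 ± 0.11.

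**Figure D4:**
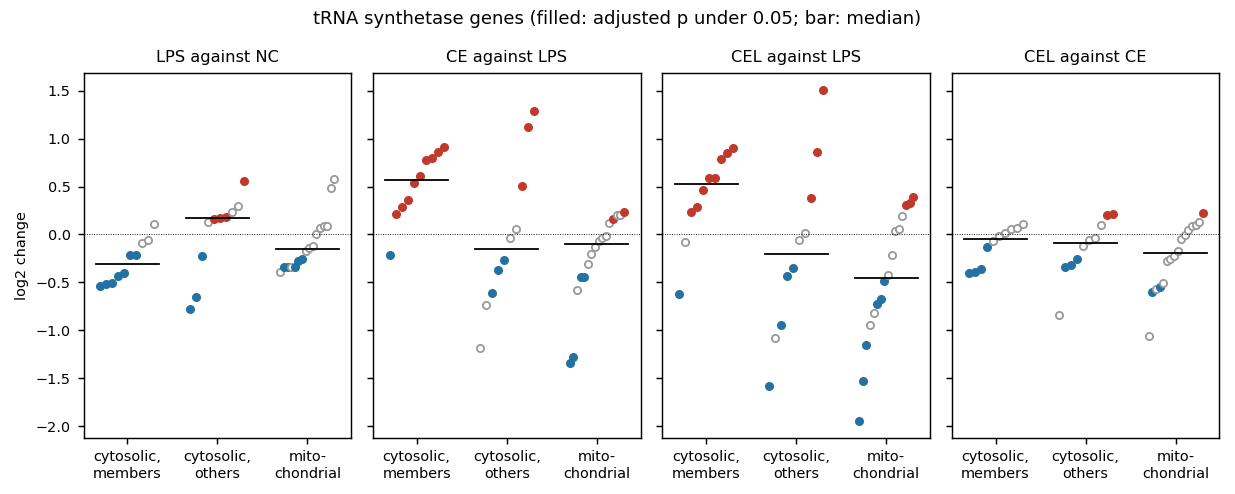
Log2 change of tRNA synthetase genes in 4 comparisons: the 10 cytosolic genes described, the 10 other cytosolic genes and 16 mitochondrial genes, each point 1 gene (filled where the edgeR adjusted p was under 0.05, red higher, blue lower) and the bar the median. In CE against LPS the medians are 0.57, -0.15 and -0.10, and in CEL against LPS they are 0.53, -0.21 and -0.46.

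Upstream of ATF4, mRNA of the 4 eIF2 alpha kinases rose in both drug groups against LPS, where 28.8% and 28.7% of all tested genes rose. EIF2AK1 (HRI) was at 202 to 210.3 CPM in NC, 159 to 172 in LPS, 225 to 262 in CE and 203 to 223 in CEL, with a rise of 0.55 ± 0.06 in CE against LPS (edgeR adjusted p = 1.04e-05). EIF2AK2 (PKR), an interferon-induced gene, was at 15.0 to 17.5 CPM in NC and 166 to 174 in LPS, a rise of 3.36 ± 0.07 (edgeR adjusted p = 6e-12), and rose by a further 0.48 ± 0.06 in CE. EIF2AK3 (PERK) rose by 0.58 ± 0.10 in CE and 0.76 ± 0.10 in CEL against LPS, and EIF2AK4 (GCN2) by 0.48 ± 0.06 and 0.33 ± 0.06. These are mRNA levels, and kinase activity and eIF2 phosphorylation were not measured. Of 12 genes for eIF2, eIF2B and their phosphatases, 4 rose and 3 fell in CE against LPS, close to the 28.8% and 20.7% of all tested genes. The eIF2 gamma subunit EIF2S3 rose by 0.59 ± 0.05, the phosphatase subunit PPP1CB rose by 0.57 ± 0.08 and the eIF2B delta subunit EIF2B4 fell by 0.51 ± 0.05.

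The mitochondrial relay to HRI consists of the protease OMA1 and its substrate DELE1. OMA1 was at 23.3 to 25.7 CPM in LPS, 35.9 to 38.4 in CE and 21.1 to 24.2 in CEL. It rose by 0.62 ± 0.07 in CE against LPS (edgeR adjusted p = 1.4e-05) and fell by 0.72 ± 0.07 in CEL against CE (edgeR adjusted p = 2.89e-05), so that CEL overlapped LPS. DELE1 was at 28.3, 45.5 and 28.7 CPM in CE and at 20.9 to 25.7 in LPS, and rose by 0.59 ± 0.18 (edgeR adjusted p = 0.0155), with CE 2 the highest library.

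Of 16 tested further targets assigned to ATF4, 8 rose and 1 fell in CE against LPS, and 8 rose and 2 fell in CEL against LPS. XPOT, which exports tRNA from the nucleus, fell by 0.54 ± 0.04 in LPS against NC and rose by 0.97 ± 0.04 in CE against LPS (edgeR adjusted p = 4.18e-09). EIF4EBP1, a repressor of cap-dependent translation, was at 47.0 to 50.3 CPM in NC, 22.6 to 25.7 in LPS, 53.3 to 59.8 in CE and 52.4 to 55.1 in CEL, the same order as ASNS except that CE and CEL overlapped. NFIL3, a leucine zipper factor, rose by 1.63 ± 0.09 in LPS against NC and by 0.70 ± 0.08 in CE against LPS. Of 10 further serine, one-carbon and proline genes, 1 rose and 2 fell in CE against LPS and 5 fell in CEL against LPS. GCSH, part of the glycine cleavage system, fell from 60.2 to 61.9 CPM in NC to 28.7 to 33.8 in LPS, 8.37 to 10.8 in CE and 6.71 to 7.90 in CEL. MTHFD1, the cytosolic counterpart of MTHFD2, fell by 0.16 ± 0.05 in CE against LPS and by 0.50 ± 0.05 in CEL against LPS. TYMS, which uses one-carbon units for thymidylate, rose by 0.16 ± 0.04 in CE and fell by 0.12 ± 0.04 in CEL, both against LPS.

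Of 6 tested nutrient sensors of mTORC1 other than SESN2, 4 rose in CE against LPS. SESN1 rose by 0.98 ± 0.07 and the S-adenosylmethionine sensor SAMTOR by 0.77 ± 0.08. SESN3 fell by 2.22 ± 0.10 in LPS against NC and rose by 0.52 ± 0.10 in CE. Of 12 genes for protein folding in the endoplasmic reticulum, which answer mainly to other branches of the unfolded protein response, 3 rose and 6 fell in CE against LPS. DNAJB9, a co-chaperone of BiP, was at 18.7 to 23.1 CPM in LPS and at 80.8 to 89.5 in CE, a rise of 2.02 ± 0.09 (edgeR adjusted p = 1.06e-08). MANF, a secreted folding factor, fell by 0.74 ± 0.06, and HERPUD1, a component of protein degradation at that membrane, rose by 0.72 ± 0.07.

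Against the untreated cells, genes lay on both sides of the NC level in each drug group. In CE against NC 23 of the 35 rose and 5 fell, where 34.6% of all tested genes rose and 29.4% fell, and 27 of 35 did not overlap, against 67.1% of all. In CEL against NC 17 rose and 9 fell, where 34% rose and 33% fell, and 30 of 35 did not overlap, against 75.8% of all. The 5 that overlapped in CEL were TRIB3, PHGDH, PSPH, SLC7A1 and AARS1, with log2 changes from -0.07 to 0.24 that did not pass. The split moved with the scaling: upper quartile factors gave 14 higher and 9 lower in CE and 13 and 11 in CEL, and library size alone gave 17 and 8 in CE and 15 and 11 in CEL. Without NC 3 and LPS 1 the counts were 15 and 5 in CE and 15 and 8 in CEL.

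Among the genes well above NC were ATF3, by 4.39 ± 0.12 in CE and 4.95 ± 0.12 in CEL, DDIT3, by 2.02 ± 0.09 and 2.21 ± 0.09, and NUPR1, by 2.49 ± 0.17 and 2.56 ± 0.17. PPP1R15A exceeded NC by 4.55 ± 0.72 in CE (3.23 without CE 2) and by 4.30 ± 0.72 in CEL. SLC7A11 exceeded NC by 1.51 ± 0.07 and 1.60 ± 0.07, and MTHFD2 by 1.23 ± 0.06 and 0.94 ± 0.06. ASNS exceeded NC by 1.07 ± 0.07 in CE and 0.55 ± 0.07 in CEL. Farthest below it were ALDH18A1, by -1.02 ± 0.07 and -1.47 ± 0.07, and PYCR1, by -1.03 ± 0.41 in CE (-1.89 without CE 2) and -2.11 ± 0.43 in CEL. The PYCR1 call in CE ended without NC 1, NC 2, CE 1 or CE 3 (edgeR adjusted p = 0.0735, 0.121, 0.0926 and 0.103). LARS1 was lower by -0.43 ± 0.06 and -0.83 ± 0.06. The calls of ATF5, SLC7A5 and SLC1A5 in CE against NC ended without CE 2 (edgeR adjusted p = 0.325, 0.397 and 0.113) and without NC 1 or NC 3 (from 0.0635 to 0.102).

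Library CE 2 was high for a subset of the genes. In it 11 of the 35 were at least 1.4-fold above the mean of CE 1 and CE 3, a limit chosen after the values were seen: ATF5, DDIT4, TRIB3, PPP1R15A, PHGDH, SHMT2, PYCR1, SLC7A5, SLC3A2, SLC7A1 and SLC1A5. Their ratios ran from 1.52 to 7.42, and those of the other 24 from 0.823 to 1.23, ranges that the limit itself keeps apart. The share of all tested genes over this limit was not counted, so the 11 cannot be set against it. The longest coding transcript of the 11 had a GC content of 52.7% to 61.8% with a median of 58.8%, and that of the other 24 had 35.4% to 56.7% with a median of 45.6%. The same direction was seen over all genes: the deviation of a gene from the other libraries of its group went with GC at r = 0.56 in CE 2, 0.51 in LPS 3 and 0.40 in CEL 1, and at -0.49 in CE 3, -0.46 in CE 1 and -0.44 in CEL 3 (11300 genes with a GC value; genes of 1 library share its depth and are not replicates). The part of base composition in the changes of these 11 genes was not tested.

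**Figure D5:**
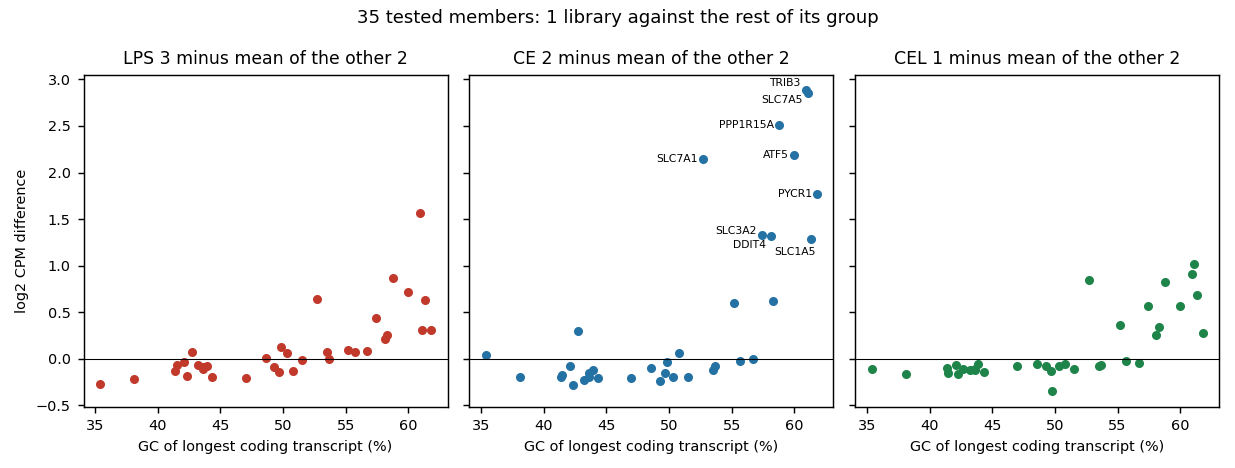
Difference in log2 CPM of 1 library from the mean of the other libraries of its group (vertical) against the GC content of the longest coding transcript (horizontal, %), for the 35 tested genes in LPS 3, CE 2 and CEL 1. Points above 1.2 in CE 2 are labelled, and most points at or below 50% GC lie near 0 in each panel.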

How the data were processed

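The authors deposited estimated counts per gene, which are not scaled and of which 29.3% of nonzero values are not whole (tolerance 0.005), and TPM, which sum to 999999 to 1000001 per library. The build is hg38 per the submitters' processing notes; aligner, counter, strand setting and annotation: not given in the sources used here. Per the labels' protocols, mRNA was captured with oligo-dT. Table columns were matched to samples by name, CE as the remaining group, with 0 columns left over.

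Counts were rounded, filtered with filterByExpr (14065 genes) and scaled with TMM. One quasi-likelihood fit of the 12 libraries in edgeR 4.0.16 gave two-sided F-tests adjusted over all tested genes (8 residual and 2.93 prior degrees of freedom, biological coefficient of variation 20.13%). The approximate standard error is the absolute log2 change over the root of F, and can be too small at low counts. TPM served to compare levels between genes, to check markers and for the limma alternatives. Alternatives were other scalings, no filter, DESeq2 1.42.0, limma 3.58.1 on log2(TPM + 1) and log2(TPM + 0.1), 2-group fits, a replicate block, and libraries left out. The script was tested on simulated counts.

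Replicate numbers are also the batch numbers in the labels. Of 18 same-numbered pairs of libraries, 6 deviated together with r above 0.1 over 7460 genes (-0.86 to 0.73, median -0.185). Higher values were seen between different numbers, at 0.89 for CE 2 with CEL 1 and 0.81 for NC 3 with LPS 1. The replicate block does not remove deviation shared across numbers. Replicate libraries differed by more than sampling noise. The 37 genes and the comparison lists were chosen with earlier results of these data known. Values in every library are given for ATF4, DDIT3, ASNS and up to 5 called genes per role with the largest changes. Of each comparison list up to 3 genes by smallest p, and the 4 kinases, are named, some by their changes alone; other genes are members. Pseudogene rows named after 9 of the genes held at most 0.475% of the gene's counts. The values of 1 gene that the naming rule selects, and of 1 marker, are not reported here.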

Additional observations from a re-analysis of the deposited data

How the results depend on the processing

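Of 210 changes (35 genes in 6 comparisons), 143 were called by edgeR, 82 of these held in every alternative run, and 61 were lost in at least 1. In CE against LPS 20 of 26 calls held throughout and in CEL against LPS 21 of 27, but in CEL against CE 0 of 13 did, and 6 of 13 held in every alternative made on counts. The replicate block gave 6 higher and 17 lower genes in LPS against NC, 22 and 3 in CE against LPS, 21 and 4 in CEL against LPS, 3 and 9 in CEL against CE, 20 and 5 in CE against NC and 17 and 9 in CEL against NC; it ended the calls given in the text and, in CE against NC, those of ATF5, ALDH1L2 and SLC7A5 (adjusted p = 0.077, 0.0731 and 0.055), and no other.

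Upper quartile factors moved the median of all genes by -0.11 to -0.29 in the 5 comparisons other than CEL against CE, and library size alone by -0.11 to -0.16 in the drug groups against LPS and NC. In CE against NC the count higher was 14 and lower 9 with upper quartile factors, and lower 8 with library size alone. PSAT1 (-0.032), ALDH1L2 (-0.17) and GARS1 (-0.12) in CE against NC and GARS1 (-0.092) in CEL against NC then lay below 0, as did ALDH1L2 with library size alone (-0.048). Without a low-count filter, 1 gene was lower in CE against LPS and 1 higher in CEL against CE. With limma on log2(TPM + 1) or log2(TPM + 0.1), the genes lower were 5 in LPS against NC, 1 in CE against LPS, 2 in CEL against LPS, 2 in CE against NC and 4 in CEL against NC, and CEL against CE gave 0 in either direction (2 higher and 4 lower at an unadjusted p under 0.05). The 5 in LPS against NC were VLDLR, ASNS, PSAT1, PHGDH and ALDH1L2. With the 2 groups alone, 10 were higher in LPS against NC and 5 lower in CEL against CE. Without NC 3 and LPS 1, 1 was lower in CE against LPS, 2 lower in CEL against LPS and 15 higher in CE against NC. The causes were not tested.

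Leaving out 1 library gave 1 to 5 lower in CE against LPS (1 without LPS 2, 5 without CE 2), 2 to 3 lower in CEL against LPS and 3 to 6 higher in CEL against CE (6 without CE 1 or CE 2). These changes, which did not pass with 12 libraries, took the opposite sign and passed without CE 2: over the libraries left out, ATF5 ran from -0.78 to 0.66 and DDIT4 from -0.32 to 0.44 in CE against LPS, and DDIT4 from -0.305 to 0.41 and PPP1R15A from -0.54 to 1.10 in CEL against CE, with the value without CE 2 the lowest in the first pair and the highest in the second. Without passing, the sign also turned for TRIB3, PPP1R15A, SHMT2, SLC7A5 and SLC7A1 in CE against LPS and for TRIB3, SLC7A5, SLC3A2, SLC7A1, SLC1A5, CEBPG, NARS1 and TARS1 in CEL against CE. The approximate standard errors in CE against LPS were largest for TRIB3 (0.77) and SLC7A5 (0.73), which are also low in counts, and next for PPP1R15A (0.60), SLC7A1 (0.52) and ATF5 (0.51), while the scarce NUPR1 had 0.16.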
